A study of Mus musculus with 25 samples.

Results

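The cytosolic ribosomal protein genes were examined in 25 RNA-seq libraries from mouse mammary organoids, the epithelium-enriched pellets left after enzymatic digestion of the gland. The set holds 89 of the 34866 genes of the table. Its members were chosen by symbol, as Rpl or Rps followed by a number with a short suffix, together with Rpsa, Rplp0, Rplp1 and Rplp2. They were set beside 286 gene copies whose symbols begin with Rpl or Rps and carry -ps. Of the 89 members, 53 have Rpl and 36 have Rps symbols, 83 are annotated as protein coding and 6 as pseudogenes (Rpl32l, Rpl6l, Rps12l1, Rps3a2, Rps3a3 and Rps4l).

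There were 5 libraries in each of 5 groups. Every group, the nulliparous one included, came from Brca1/P53-deficient mice, in which a Cre recombinase driven by the keratin 14 promoter deletes both genes in epithelial cells, and no wild-type libraries were used here. The groups were multiparous mice given a single dose of cabergoline (0.2 mg/kg per the labels, a dopamine D2 receptor agonist that lowers prolactin) and sampled 60 days after lactational involution, untreated multiparous mice at 60 days, cabergoline-treated multiparous mice sampled 1 day after lactation, untreated multiparous mice at 1 day, and untreated nulliparous mice of the same age as the 60-day mice. The 1-day and 60-day mice were different animals, so time and experiment cannot be told apart.

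The ribosome is built from a large (60S) subunit, which holds the peptidyl transferase centre and the Rpl proteins, and a small (40S) subunit, which decodes the messenger RNA with the Rps proteins. One copy of nearly every protein goes into each ribosome, and their messenger RNAs begin with a run of pyrimidines, the 5′ terminal oligopyrimidine (TOP) motif, through which mTORC1 and LARP1 control their translation. Mammalian genomes carry very many processed copies of these genes, which makes the assignment of reads to the parent gene uncertain.

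The libraries differed widely in what filled them. A single gene model, Gm12895, took 28.0 to 56.8% of the normalized transcript level (TPM, the share of transcripts scaled to a common total) at 1 day and 0 to 10.5% in the other 15 libraries. Mitochondrial transcripts reached 39.8% in nulliparous replicate 1. Between 11764 and 18678 genes reached 1 TPM. Cabergoline 60-day replicate 4 was listed at 0 TPM of Gm12895. Of the 15 libraries not taken at 1 day it had the fewest genes at 1 TPM (14469, against 15639 or more in the others). It also had the fewest members at 1 TPM (79) of those 15. Krt14, which marks the basal epithelial cells the organoids should hold, was also listed at 0 there and lay under 1 TPM in 7 other libraries, while the luminal keratin Krt18 stood at 53.3 TPM in that library. Trp53 was read at 22.9 to 97.9 TPM in the 60-day multiparous libraries and Brca1 at 0.640 to 15.9 TPM. No 2 libraries held identical values.

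The members and their copies are shown first by sequence, because several values below depend on which of 2 near-identical sequences received the reads. The stretches are coding bases of the principal transcripts of GENCODE (GRCm38), read 5′ to 3′. Rps6, the phosphorylated protein of the small subunit, and Rps6-ps4 on chromosome 2 (chr2:75191073-75191822) were identical over all 747 aligned bases, and Rps12 and Rps12-ps3 on chromosome 19 (chr19:59322290-59322783) over 396. Rpl28 and Rpl28-ps1 on chromosome 1 (chr1:128038569-128038982) were identical over 411. Rpl3, which lines the peptidyl transferase centre, and Rpl3-ps1 (chrX:13202571-13203780) had 2 mismatches in 1209 bases, and the capital letter marks one of them within coding bases 27 to 86 of Rpl3. The other stretches start at coding base 1.
Rpl3: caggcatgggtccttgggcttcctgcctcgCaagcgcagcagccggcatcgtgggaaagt
Rpl3-ps1: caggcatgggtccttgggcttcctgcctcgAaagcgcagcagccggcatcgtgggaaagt
Rps6 and Rps6-ps4: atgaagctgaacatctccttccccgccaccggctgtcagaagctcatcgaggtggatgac
Rps12 and Rps12-ps3: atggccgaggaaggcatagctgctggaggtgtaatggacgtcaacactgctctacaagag
Rpl28 and Rpl28-ps1: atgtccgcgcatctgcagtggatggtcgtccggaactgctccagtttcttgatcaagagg

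A search of the annotated transcripts with the coding sequences found 514 copies with at least 95% identity over at least 90% of the coding length, for 77 of the 83 coding members. Of these copies 154 carried -ps symbols and 22 were identical over the full coding length. For 20 members most of the summed TPM lay on copies rather than on the parent gene. Rps2 averaged 5.13 TPM over the 25 libraries while Rps2-ps10 averaged 1132, so that 99.6% of the TPM of Rps2 and its copies lay on the copies. The share was 96.04% for Rpl34, 95.4% for Rps12, 94.8% for Rpl29, 93.3% for Rpl27 and 82.8% for Rps27. It was 92.4% for Rpl3, mainly on Rpl3-ps1, and 87.5% for Rpl5, mainly on Gm15500. Values of these members are uncertain to that extent.

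**Figure D1:**
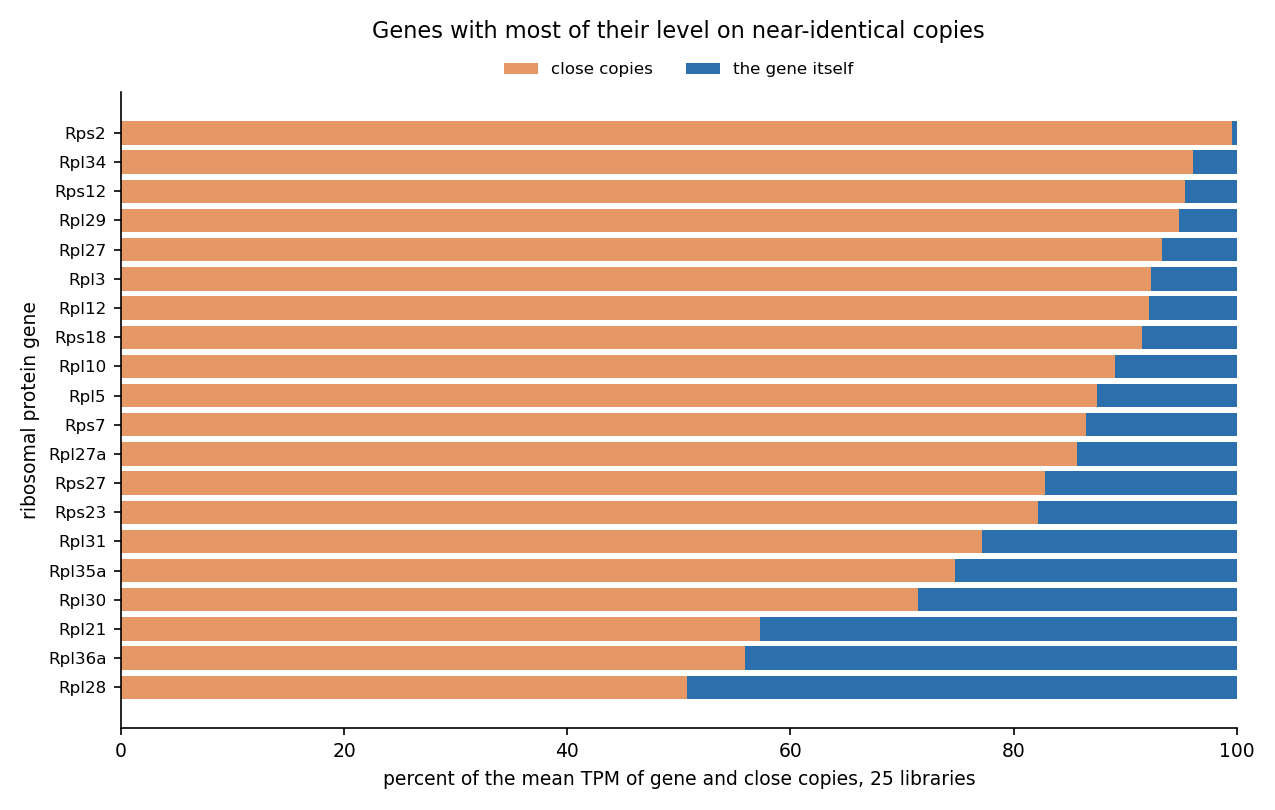
Percentage of the summed TPM of each member and its close copies that was assigned to the copies (orange) and to the gene itself (blue), as means over all 25 libraries, 1 bar a member. Rps2 leads at 99.6%, and the 20 members drawn are those above 50%.

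The start sites of 63 members had an entry in the RefSeq promoter table (GRCm38.p6). A run of at least 8 C or T bases on the transcribed strand (the opposite strand was not searched) that touched the 10 bases on either side of the start was present at 29 of 63 members (46.0%), against 4259 of 27025 genes of all kinds (15.8%) and 9 of 69 mitochondrial ribosomal protein genes (13.04%). Windows of 30 bases from 10 before the start are printed for members whose levels are described below, with the longest such run near the start in capitals. Rpl13a lies at chr7:45128726-45128755 on the minus strand, Rpl15 at chr14:18270967-18270996 (minus), Rpl28 at chr7:4792955-4792984 (plus), Rps6 at chr4:86857348-86857377 (minus), Rplp2 at chr7:141447641-141447670 (plus), Rps28 at chr17:33824543-33824572 (minus), Rpl41 at chr10:128549149-128549178 (minus), Rps4x at chrX:102189372-102189401 (minus) and Rps13 at chr7:116334171-116334200 (minus).
Rpl13a: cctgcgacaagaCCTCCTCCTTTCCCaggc
Rpl15: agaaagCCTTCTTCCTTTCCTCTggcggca
Rpl28: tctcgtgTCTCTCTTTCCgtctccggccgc
Rps6: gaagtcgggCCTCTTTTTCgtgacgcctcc
Rplp2: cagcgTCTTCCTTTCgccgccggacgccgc
Rps28: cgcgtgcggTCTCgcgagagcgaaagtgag
Rpl41: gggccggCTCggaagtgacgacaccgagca
Rps4x: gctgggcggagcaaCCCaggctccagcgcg
Rps13: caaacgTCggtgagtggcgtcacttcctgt
The first 5 hold a run of 8 bases or more and the last 4 do not, by the annotated start.

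TPM is a level per length, so members can be compared on it, as far as their reads were placed on the parent gene. The order below leaves out close copies. Those of Rps12, Rps2 and Rpl10 averaged 1581, 1162 and 1139 TPM, so these members stand low in it. Among the highest by mean over the 25 libraries stood Rpl13a (2258 TPM), Rps14 (1145), Rplp2 (1008), Rps4x (987), Rpl26 (843), Rplp1 (826), Rps16 (775) and Rps6 (768). Rplp1 and Rplp2 form the stalk that recruits translation factors, and Rplp0, their anchor on the large subunit, averaged 766 TPM. Rpsa, the small-subunit protein also known as the laminin receptor, averaged 755 TPM. Rpl5 and Rpl11, which with 5S RNA bind Mdm2 when ribosome assembly fails, averaged 76.8 and 375 TPM, the value for Rpl5 leaving out the close copies that held most of its reads, and Rpl26, which also binds the messenger of p53, 843 TPM. Rpl10l was listed at 0 in all 25 libraries and Rpl6l stayed under 1 TPM in each. Between 79 and 86 of the 89 members reached 1 TPM in a library.

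The paralogue pairs were unequal. By mean TPM, Rpl3l, known from striated muscle, stood at 17.8 beside 50.1 for Rpl3, whose reads lay mostly on copies, Rpl7l1 at 20.7 beside 629 for Rpl7, and Rpl22l1 at 51.2 beside 287 for Rpl22. Rpl39l, the testis-enriched form, averaged 0.854 TPM beside 208 for Rpl39, and Rps4l averaged 7.05 beside 987 for Rps4x. The exception was Rps27l, a p53 target in human cells, at 137 TPM beside 131 for Rps27, whose reads also lay mostly on copies. Rpl3l was uneven between libraries of 1 group. It stood at 10.96, 19.7, 116, 0 and 0.802 TPM in the cabergoline 60-day libraries, against 5.60, 3.38, 56.7, 159 and 2.14 TPM in the untreated 60-day libraries. In both of these 60-day groups 1 or 2 libraries carried nearly all of it, and the groups overlapped. The summed skeletal muscle markers were 2134, 4943, 32468, 1888 and 296 TPM in the cabergoline 60-day libraries, in the same order. In the untreated 60-day libraries they were 424, 318, 12322, 43963 and 403 TPM, so they were highest in the same libraries as Rpl3l. The part of muscle in these levels was not tested.

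The summed level of the 89 members varied more between libraries of a group than between treatments. It was 53989.5, 48969, 27780.1, 28062 and 49251 TPM in the cabergoline 60-day libraries, against 53455, 33838, 20097, 32704 and 62545 TPM in the untreated 60-day libraries. At 1 day it was 11444, 23571, 14188, 25167 and 30591 TPM with cabergoline, against 9309.7, 23853, 38712, 9517 and 10999 TPM without. Nulliparous libraries held 13408, 54534, 49463, 32012 and 50657 TPM. The treated and untreated groups overlapped at both times, with means of 41610.3 ± 12655 and 40528 ± 17141 TPM at 60 days and of 20992 ± 7964 and 18478 ± 12831 TPM at 1 day (SD, n = 5 each).

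**Figure D2:**
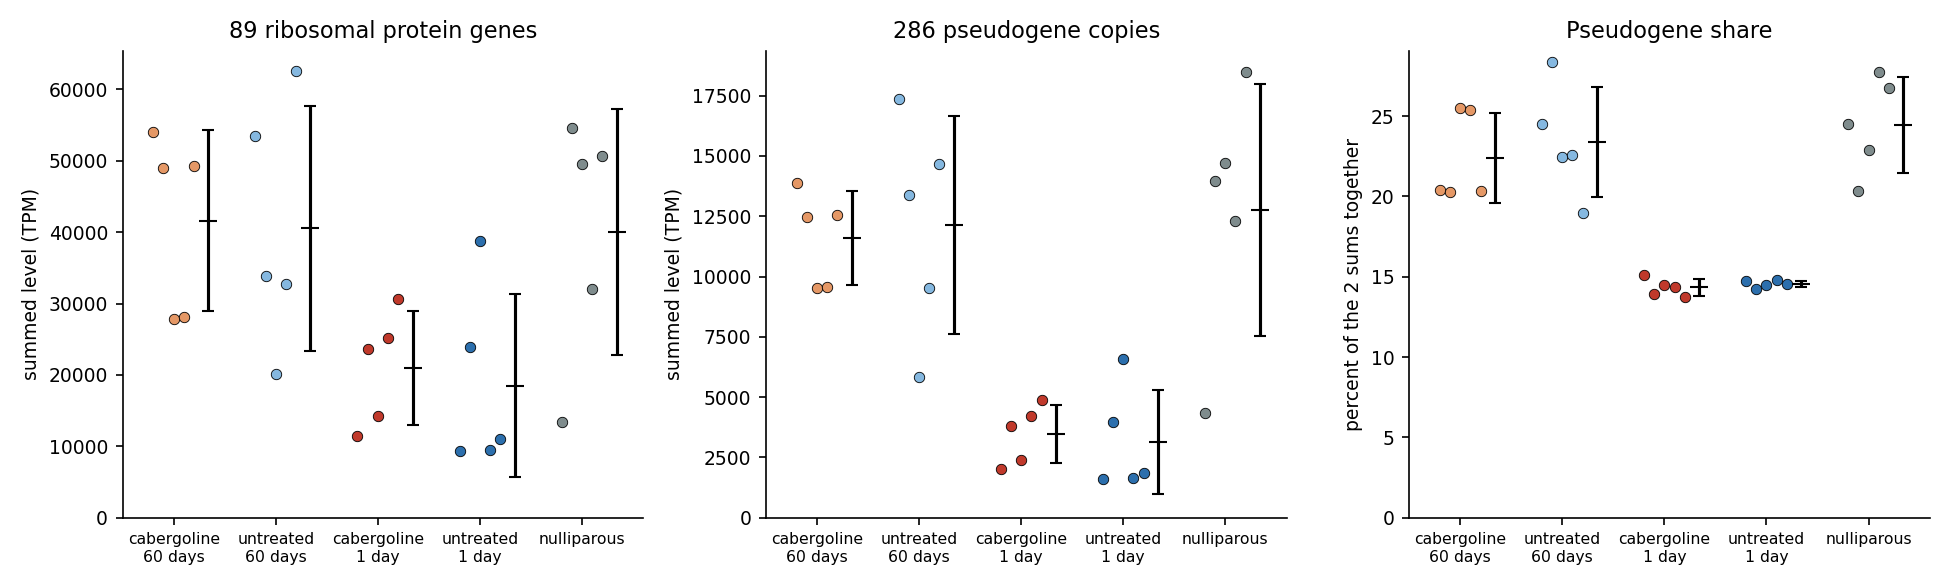
Summed TPM of the 89 members (vertical axis) in each library, by group, with bars for the group means and SD. The 1-day libraries lie between 9310 and 38712 TPM and the later ones between 13408 and 62545 TPM, and cabergoline-treated and untreated libraries overlap at each time.

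The gap between times was smaller relative to the rest of the library. With Gm12895 and the mitochondrial transcripts left out of the total, the members took 4.74 and 4.56% of the remaining TPM in the cabergoline and untreated 60-day groups, 3.55 and 3.87% in the cabergoline and untreated 1-day groups and 4.46% in the nulliparous group. At 1 day the summed level of the 17 T and NK cell markers was 12.97, 560.3, 37.1, 606 and 1163 TPM with cabergoline and 10.8, 1098, 1748, 10.2 and 9.83 TPM without, in replicate order. With cabergoline it ranked the libraries as the member sum did, and without it the same 2 libraries, replicates 2 and 3, were highest in both. The summed milk protein genes of the untreated 1-day libraries were lowest in those 2, at 256727, 71223, 2195, 278180.0 and 348741 TPM. In the 60-day and nulliparous libraries the T and NK marker sums spanned 59.2 to 4267 TPM. The part of cell mixture in the member levels was not tested, and in bulk RNA fewer cells of a type and less RNA per cell cannot be told apart.

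The balance between members differed between the 60-day experiment and the 1-day experiment. As a percentage of the summed level of the 89 members, a measure that no scaling factor alters, 17 of the 89 were lower and 8 were higher in all 15 libraries of the 60-day experiment (nulliparous mice included) than in all 10 libraries at 1 day. Over all 19086 genes measured against the same sum, 0.231% were lower and 6.63% were higher without overlap, so the count of higher members lies near that background. In either direction the background was 6.86%. Shares of 1 sum are not independent of each other. Among the lower 17 were Rpl28, Rps28, Rps13, Rpl23, Rpl23a, Rpl41, Rpl15, Rpl36, Rpl37 and Rpl38, and among the higher 8 were Rps4x, Rps14, Rps16, Rpl5, Rpl7 and Rplp0. On the scaled levels 25 of 87 members were lower and 0 higher without overlap, where 1.83% of genes did not overlap (1.17% lower and 0.660% higher).

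Rpl28, a large-subunit protein of eukaryotes at chr7:4792874-4795066 (GRCm38), had the most negative log2 difference of the members in both 60-day against 1-day comparisons given below. Rpl28 stood at 103, 106, 46.1, 40.9 and 112 TPM in the cabergoline 60-day libraries, against 188, 294, 233, 339 and 402 TPM in the cabergoline 1-day libraries. Without treatment it stood at 87.6, 15.1, 50.1, 51.3 and 117 TPM at 60 days, against 162, 296, 438, 149 and 197 TPM at 1 day. Nulliparous libraries had 23.0, 98.8, 88.1, 42.8 and 87.2 TPM. No later library reached the lowest 1-day library, in TPM or as a share of the members, where Rpl28 took 0.0445 to 0.249% of the sum later against 1.13 to 1.79% at 1 day. Rps28, a small-subunit protein near the messenger exit (chr17:33819027-33824562), stood at 271, 195, 122, 72.3 and 247 TPM in the cabergoline 60-day libraries, against 332, 654, 424, 708 and 781 TPM in the cabergoline 1-day libraries. Without treatment it stood at 220.5, 143, 95.4, 121 and 316 TPM at 60 days, against 259.9, 542, 839.5, 280.4 and 365 TPM at 1 day. Nulliparous libraries had 85.3, 253, 245, 159.8 and 185 TPM. In TPM the times overlapped, since the highest 60-day library lay above the lowest at 1 day. As a share Rps28 took 0.258 to 0.636% later, against 2.17 to 3.31% at 1 day, without overlap. The next members were given as shares, later against 1 day, and none of them overlapped. Rps13, an early-binding 40S protein at chr7:116331505-116334195, took 0.0160 to 0.379% against 0.911 to 1.21%, Rpl23 0.171 to 0.506% against 0.844 to 1.10%, and Rpl41, the smallest ribosomal protein, 1.09 to 2.08% against 3.18 to 7.22%.

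Other members stood on the opposite side. Rps4x, the X-linked form of a 40S protein (chrX:102184941-102189394), stood at 1924, 2076, 1129, 1041 and 1981 TPM in the cabergoline 60-day libraries, against 142, 343, 188, 364 and 473 TPM in the cabergoline 1-day libraries. Without treatment it stood at 1384, 1214, 678, 1207 and 1902 TPM at 60 days, against 121, 419.5, 714, 115 and 137 TPM at 1 day. Nulliparous libraries had 553, 2149.6, 1659.8, 1061 and 1708 TPM. In TPM untreated 60-day replicate 3 lay below untreated 1-day replicate 3, as did nulliparous replicate 1, and the other later libraries lay above all at 1 day. Its share was 2.59 to 4.24% against 1.20 to 1.85%, without overlap. Rps14 took 1.95 to 6.06% against 1.53 to 1.86%. Rpl13a, the most abundant member, overlapped between times at 2.56 to 10.8% against 3.06 to 5.22%.

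The Rpl28 share was also read in the libraries whose milk protein signal stood apart from their group, picked after their values were seen. Untreated 1-day replicate 3 held 21.3 TPM of Csn2, the β-casein gene, and its Rpl28 share of 1.13% was the lowest of the 10 libraries at 1 day, with the highest later share at 0.249%. Untreated 60-day replicate 2 held 22202 TPM of Csn2 and had an Rpl28 share of 0.0445%, the lowest of the 25 libraries. Members differed in how even their shares were at 1 day. In the untreated 1-day libraries, in replicate order, Rpl41 took 6.40, 3.49, 3.18, 6.25 and 7.22% of the member sum. Rps27a took 1.36, 1.43, 1.31, 1.31 and 1.31% there. The part of milk content or cell mixture in these shares was not tested.

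**Figure D3:**
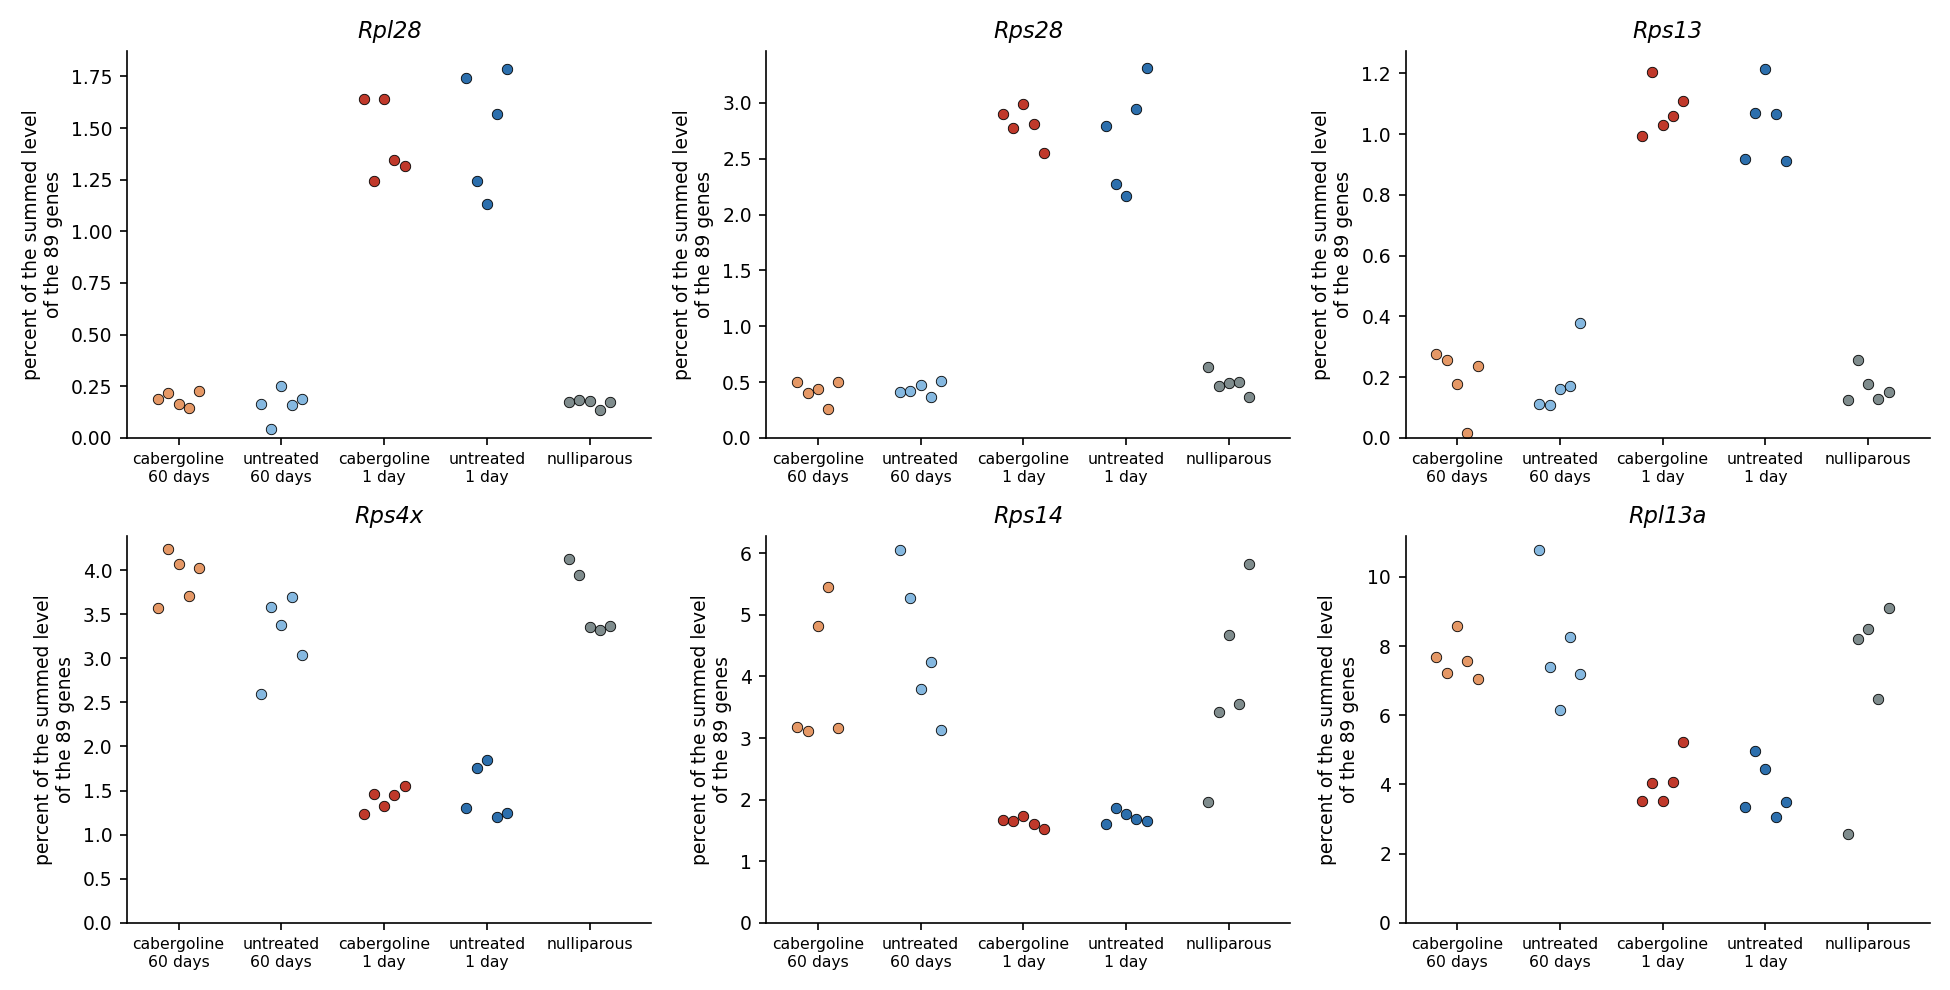
Share of the summed member TPM (percent, vertical axis) taken by single members in each library, grouped by treatment and time. Each point is 1 library. Rpl28, Rps28 and Rps13 lie lower, and Rps4x and Rps14 higher, in all 15 libraries of the 60-day experiment than in all 10 libraries at 1 day.

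The members' shares were also less uniform later. Over the 80 coding members with a mean of at least 10 TPM, the median SD of the log2 share was 0.369 in the 15 later libraries and 0.153 in the 10 one-day libraries, and it was larger later for 75 of the 80. The 10 highest members took 37.9% of the member sum later and 29.8% at 1 day, and 16 members made up 50% of the sum later, where 21 did at 1 day.

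The test across genes was limma on log2(scaled TPM + 1) (p-values adjusted by Benjamini and Hochberg across every gene tested), each library first scaled by its median ratio over commonly detected genes, so that a member rises or falls relative to the typical gene. In cabergoline-treated mice at 60 days against 1 day, 36 of 83 tested members fell and 4 rose, where 21.4% of 16457 genes changed (12.2% lower and 9.14% higher). The fallen ones were 24 of 50 large-subunit and 12 of 33 small-subunit members. In untreated mice 20 of 84 fell and 0 rose, where 1.21% of 16312 genes changed (0.883% lower and 0.325% higher). These were 14 of 50 large-subunit and 6 of 34 small-subunit members. The members' median log2 difference was -0.61 with cabergoline and -0.73 without, beside 0.08 and 0.12 over all genes tested. All 20 members that fell in untreated mice also fell with cabergoline, and 16 passed with cabergoline alone, but the difference between the treatments, tested as a treatment-by-time term, was called for 0 members.

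Markers of cell types moved in the same contrast. With cabergoline 14 of 18 epithelial markers and 13 of 14 milk protein genes fell, 1 epithelial marker rose, and 4 of 12 endothelial and 0 of 17 T and NK markers rose. Also with cabergoline 5 of 13 adipocyte, 3 of 12 macrophage and 2 of 14 B and plasma cell markers fell, and 1 of 10 fibroblast markers rose and 1 fell, while 0 of 16 skeletal muscle markers were called. Without treatment 1 endothelial marker rose and 0 of the other markers of these lists were called. The summed epithelial markers spanned 164 to 977 TPM at 60 days and 669 to 1311 TPM at 1 day with cabergoline, and 91.4 to 5629 TPM at 60 days and 83.6 to 1299.8 TPM at 1 day without. The summed milk protein genes spanned 659 to 1451.5 TPM at 60 days, against 135250.0 to 332414 TPM at 1 day, with cabergoline. The part of the cell mixture in the members' differences was not tested.

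In log2 units, Rps28 differed at 60 days by -3.35 ± 0.31 (SE, adjusted p = 8.3e-05, limma, n = 5 each) in cabergoline-treated mice and by -3.21 ± 0.29 (adjusted p = 0.0010) in untreated mice. Rpl28 differed by -3.49 ± 0.27 (adjusted p = 2.8e-05, limma) and -3.94 ± 0.45 (adjusted p = 0.0043). With TPM as deposited they were still lower and past the threshold in untreated mice, at -1.34 and -2.09, the only 2 of the 20 that were. Of the other members with the smallest p in untreated mice, the log2 differences with cabergoline and without were -2.68 and -2.53 for Rpl23, -2.45 and -2.46 for Rpl23a, and -2.42 and -2.25 for Rpl41. They were -3.46 and -3.20 for Rps13, -1.89 and -1.88 for Rpl37, and -1.99 and -2.16 for Rpl21. Rpl15 (-1.59 and -1.66) and Rpl27a (-1.22 and -1.44) also fell, but with TPM as deposited both turned positive in untreated mice (0.21 and 0.42), as they did with cabergoline (0.02 and 0.37). With cabergoline Rpl36 (-2.34) and Rpl38 (-2.32) fell, as did Rpl24 (-1.29), which was positive with TPM as deposited (0.31).

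Of the 83 members 4 rose at 60 days with cabergoline, a smaller share than the 9.14% of all genes that did. They carry Rps symbols, and the difference between the subunits was not tested. Among them Rps4x was higher by 0.89 ± 0.25 (SE, adjusted p = 0.030, limma, n = 5 each) and Rps14 by 0.63 ± 0.17 (adjusted p = 0.028). Rps4l, annotated as a pseudogene, was higher by 0.99 ± 0.31 (adjusted p = 0.045). All 4 were positive under each scaling tried, and quantile normalization called 3 of them. The calls were not stable to single libraries. As each library was left out, the adjusted p reached 0.095 for Rps4x, 0.098 for Rps14 and 0.10 for Rps4l (limma). With the replicate block 1 member was called higher. In untreated mice the differences were 0.54 ± 0.30 for Rps4x, 0.74 ± 0.33 for Rps14 and 0.44 ± 0.31 for Rps4l, none past the threshold. Of the members tied to p53, Rpl11 (-0.94 ± 0.25) and Rps27l (-1.56 ± 0.44) fell with cabergoline, and both were positive with TPM as deposited (0.67 and 0.04). Rpl5 (0.62 ± 0.28), Rpl26 (0.12 ± 0.28) and the stalk genes Rplp0 (0.24), Rplp1 (-0.09) and Rplp2 (-0.12) did not pass, nor did Rpsa (0.68) or Rps6 (-0.22).

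**Figure D4:**
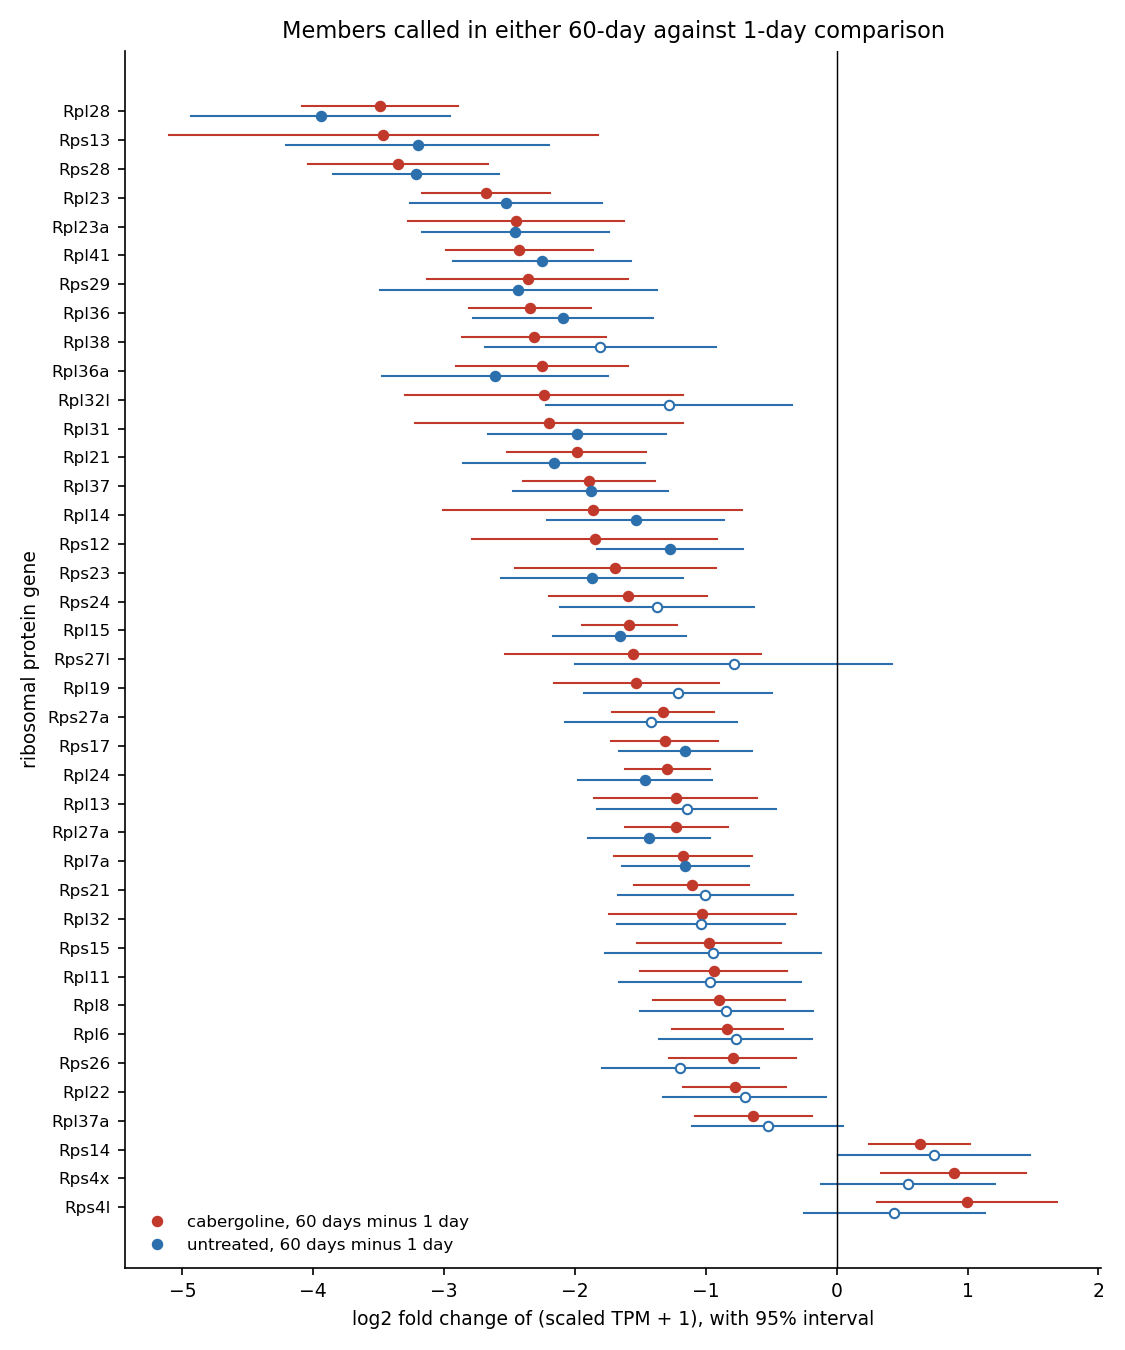
Log2 difference, 60 days minus 1 day, of members called in either comparison (horizontal axis, limma on scaled TPM, bars give the 95% interval), with the cabergoline-treated mice drawn above the untreated ones. Filled points passed the adjusted threshold of 0.05 and open points did not. Rpl28 lies at -3.49 and -3.94, Rps4x at 0.89 and 0.54.

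The direction of the set as a whole rested on the scaling. With TPM as deposited the median over all genes was 1.42 with cabergoline and 1.61 without. Then 44 members rose and 5 fell with cabergoline, where 72.2% of genes rose and 2.84% fell, and 40 rose and 2 fell without, where 73.5% rose and 0.374% fell. Of the 36 members that fell with cabergoline on the scaled values, 17 were still negative and 19 positive, and of the 20 without, 13 were negative and 7 positive. Relative to the median of all genes the members' median stood at -0.45 and -0.47, beside -0.69 and -0.85 with the scaled values. After rescaling without Gm12895 and the mitochondrial transcripts, 22 members rose and 13 fell with cabergoline (55.6% and 4.41% of genes), and 0 of 84 were called without (0.178% of genes). Quantile normalization gave 9 higher and 26 lower with cabergoline (9.45% and 12.8% of genes), and 0 and 16 without (0.356% and 1.07%). The members' median lay below that of all genes under each of these scalings.

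Single libraries moved the count in untreated mice. The count of fallen members was 7 without untreated 1-day replicate 4, 8 without untreated 1-day replicate 5 or untreated 60-day replicate 4, and 12 without untreated 1-day replicate 1 or untreated 60-day replicate 1 or 3, against 20 with all libraries. The calls over all genes dropped as well, from 197 with all libraries to 38, 39, 38, 51, 73 and 72 in that order. With cabergoline the count of members called in either direction stayed between 30 and 42 as each library was left out. With all libraries 36 fell and 4 rose there. The medians stayed between -0.78 and -0.52 with cabergoline and between -0.82 and -0.60 without.

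The copies were then counted with their parents. With every close copy added, 34 members fell and 6 rose with cabergoline (12.2% and 9.13% of genes), and 13 fell and 0 rose in untreated mice (0.809% and 0.313%). Of the 36 and 20 fallen members, 31 and 13 were still called lower. Rpl28 then differed by -3.20 and -2.76 with cabergoline and without on the log2 scale, and Rps28 by -3.02 and -2.37, all past the threshold. In untreated mice Rps13 (-1.94), Rpl37 (-0.76), Rpl27a (-1.02) and Rpl21 (-0.78) no longer passed.

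Length and start sequence were compared with these calls as a description. The log2 difference ran with coding length over 81 members (Spearman rho 0.43 with cabergoline and 0.35 without), which share libraries and scaling. The 27 members with under 400 coding bases had medians of -0.80 and -0.75, and the 54 longer ones had -0.50 and -0.62. A pyrimidine run at the start stood at 13 of 27 fallen members (48.1%) against 16 of 34 others (47.1%) with cabergoline, and at 7 of 15 (46.7%) against 22 of 46 (47.8%) without.

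Among other genes of the pathway, Fau, which encodes the 40S protein eS30 as a fusion, and Rpl36al, both outside the symbol rule, fell at 60 days. They differed by -2.71 and -1.64 with cabergoline and by -2.85 and -1.71 without in log2 units. Over all genes 12.2% fell and 9.14% rose with cabergoline, and 0.883% fell and 0.325% rose without, and the counts of the lists are read beside these shares. Of 28 translation factors 8 fell and 1 rose with cabergoline and 2 fell without, namely Eif3a (-1.56), the core of the initiation factor eIF3, and Naca (-1.63), a nascent-chain chaperone. Of 39 ribosome biogenesis genes 5 rose and 5 fell with cabergoline, near the background in each direction, and 0 changed without. Mitochondrial ribosomal protein genes fell in 21 of 80 with cabergoline, 1 rising, and in 5 of 79 without. Of 20 genes of the mTORC1, S6 kinase and MYC arm 4 fell with cabergoline, including Eif4ebp1 (-1.40) and Larp1 (-0.67), the TOP-binding repressor, and of 12 p53-arm genes 3 fell, including Sesn2 (-1.66), where 0 of either list changed without. These counts were not tested against the background. With TPM as deposited Eif3a, Naca and Rpl36al in untreated mice and Eif4ebp1 and Larp1 with cabergoline were positive.

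The pseudogenes took a larger part of the ribosomal protein signal later. Their share of the summed TPM of members and -ps copies was 20.4, 20.3, 25.5, 25.4 and 20.3% in the cabergoline 60-day libraries and 24.5, 28.3, 22.5, 22.6 and 18.99% in the untreated ones. At 1 day it was 15.1, 13.9, 14.5, 14.4 and 13.7% with cabergoline and 14.7, 14.3, 14.5, 14.8 and 14.6% without, and in nulliparous libraries 24.5, 20.4, 22.9, 27.8 and 26.7%. Every later library lay above every 1-day library, also without Rps12-ps3, the most abundant copy. Within each time the treatments overlapped. Of the 286 copies, 66 were listed at 0 in all libraries and 129 reached 1 TPM in at least 1. The highest means were those of Rps12-ps3 (1572 TPM), Rps2-ps10 (1132), Rpl10-ps3 (1121), Rpl34-ps1 (716) and Rpl3-ps1 (605).

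The copies that moved most between times were 2 that were nearly silent at 1 day. Rps6-ps4, identical in its coding stretch to Rps6, stood at 233, 204, 179, 608 and 278 TPM in the cabergoline and 556, 515, 90.04, 183 and 281 TPM in the untreated 60-day libraries. At 1 day it was listed at 0 in all 5 cabergoline libraries and reached 26.02 TPM in untreated replicate 2 alone, so the times did not overlap. Rpl17-ps3 stood at 402, 209, 425, 413 and 84.2 TPM in the cabergoline and 1364, 479.7, 59.1, 286 and 161 TPM in the untreated 60-day libraries, and reached 0.239 and 0.329 TPM at most at 1 day. All passed the threshold, with log2 differences of 7.15 and 6.90 for Rpl17-ps3 with cabergoline and without and of 6.08 for Rps6-ps4 without, on a scale that understates changes from near 0. In untreated mice Rpl28-ps1 (-1.99), Rps18-ps3 (-2.31) and Rpl36a-ps2 (-2.50) fell, so 2 of 55 tested copies rose and 3 fell, where 0.325% of all genes rose and 0.883% fell. Some of these untreated calls were lost as single libraries were left out. The adjusted p then reached 0.076 for Rps6-ps4, 0.092 for Rps18-ps3 and 0.10 for Rpl36a-ps2 (limma). With cabergoline 8 of 53 rose and 4 fell, where 9.14% of all genes rose and 12.2% fell.

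No member passed the test between cabergoline-treated and untreated mice at either time. These are calls of limma on the deposited TPM with every library. The authors, using edgeR, reported genes past the same adjusted threshold at both times and against nulliparous mice. Their legends count fewer mice in some groups, and whether members were among those genes was not checked. At 1 day 0 of 85 tested members passed limma's adjusted threshold, where 0% of all 14733 genes did, and 4 members had an unadjusted p under 0.05 (287 of all genes). Of the 85, 23 lay higher and 62 lower, with a median log2 difference of -0.06 beside 0.02 over all genes. At 60 days 0 of 82 members passed, where 0% of 17644 genes did. There 1 member had an unadjusted p under 0.05 (207 genes in all), 37 lay higher and 45 lower, and the median was -0.02 for members and for all genes alike. The difference between the 2 effects, as a treatment-by-time term, was called for 0 of 85 members and 0% of 18232 genes (2 members and 256 genes at an unadjusted p under 0.05), with a median of 0.05.

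Rps27, a zinc-finger protein of the small subunit (chr3:90212522-90213651), had the largest positive difference at 1 day. It stood at 56.1, 58.6, 36.9, 85.6 and 89.01 TPM in cabergoline-treated libraries, against 12.98, 26.1, 92.5, 2.28 and 15.6 TPM in untreated ones. Untreated replicate 3 lay above all 5 treated libraries and the other 4 below them, so the groups overlapped. The log2 difference was 1.46 ± 0.51 (SE, 95% interval 0.33 to 2.60, adjusted p = 1.00, limma, n = 5 each), and 0.11 with its close copies added. At 60 days it stood at 129.6, 345, 93.9, 0 and 68.6 TPM with cabergoline, against 283, 26.6, 196, 285 and 345 TPM without. Cabergoline replicate 4 was listed at 0, and the difference of -1.91 ± 1.39 (95% interval -4.97 to 1.15) became -0.53 without that library and 0.08 with the copies added. None of these passed the threshold.

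The other members with the widest differences were likewise not called. At 1 day the log2 differences were 0.69 ± 0.39 for Rpl32l, 0.44 ± 0.54 for Rps27l, -0.67 ± 0.52 for Rps3a2, -0.63 ± 0.62 for Rpl3l and -0.40 ± 0.14 for Rps4l (SE). At 60 days Rpl29, a large-subunit protein, stood at 13.8, 21.6, 17.1, 28.98 and 21.2 TPM with cabergoline, against 11.1, 2.99, 7.49, 13.2 and 15.1 TPM without. The groups overlapped, with a log2 difference of 0.98 ± 0.40 (95% interval 0.11 to 1.86) that turned to -0.15 with its copies added. Rpl22l1 (0.86 ± 0.68), Rpl10 (0.41 ± 0.54), Rpl3l (-0.89 ± 1.48) and Rpl27 (-0.64 ± 1.10) followed, of which Rpl10 turned to -0.09 with copies added and Rpl27 to 0.54 without cabergoline 60-day replicate 4. In the treatment-by-time term the widest were Rpl29 (1.12), Rps3a2 (1.00), Rpl22l1 (0.77), Rps27 (-3.22), Rps12l1 (-2.13) and Rpl32l (-0.81). For the abundant members the intervals were narrower: at 60 days the cabergoline difference of Rps6 lay within -1.26 to 0.52 and that of Rplp0 within -0.63 to 0.98.

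Multiparous and nulliparous mice were compared at the later age, and both comparisons share the nulliparous libraries. In cabergoline-treated multiparous mice 0 of 83 members passed limma's adjusted threshold, where 0% of 18077 genes did, and 2 members and 878 genes had an unadjusted p under 0.05. Of the 83, 62 lay higher and 21 lower, with a median log2 difference of 0.12 beside -0.05 over all genes. In untreated multiparous mice 0 of 83 passed, where 0% of 17960 genes did, and 1 member and 441 genes had an unadjusted p under 0.05. There 61 lay higher and 22 lower, with a median of 0.16 beside -0.03. Leaving out single libraries moved these medians between -0.09 and 0.31 for cabergoline and between -0.09 and 0.29 for untreated mice.

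Among single members, Rps7, a 40S protein, stood at 262, 262, 113, 78.5 and 205 TPM in cabergoline-treated and 117, 130.4, 90.3, 98.98 and 218 TPM in untreated multiparous libraries, against 48.4, 198, 109, 44.2 and 108 TPM in nulliparous ones. The groups overlapped, and the log2 differences were 0.92 ± 0.42 (adjusted p = 0.89, limma, n = 5 each) and 0.63 ± 0.35 (adjusted p = 1.00). Rpl32l differed by -1.89 ± 0.80 and -1.81 ± 0.71, and Rpl29 by 0.73 ± 0.34, Rps19 by 0.62 ± 0.61, Rps27 by -1.54 ± 1.41 and Rpl27 by -0.93 ± 1.10 in the cabergoline comparison. With copies added Rps27 (0.32) and Rpl27 (0.03) turned positive there. In the untreated comparison the widest others were Rpl3l (1.06), Rpl13 (0.67), Rpl21 (-0.49) and Rpl36a (-0.44). The -ps copies gave 0 calls in these 2 comparisons and in the cabergoline comparisons at either time, out of 47 to 66 tested.

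**Figure D5:**
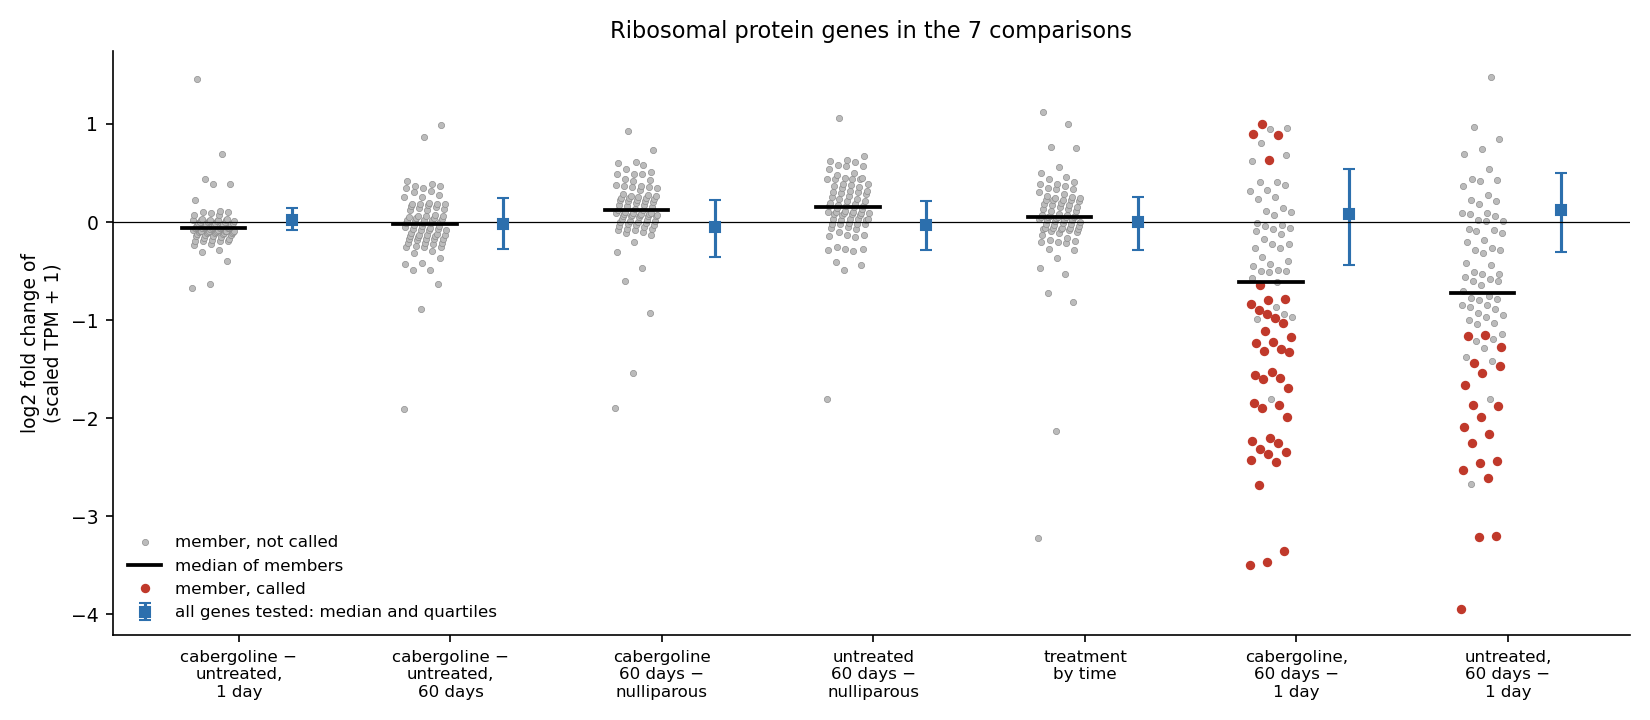
Log2 differences of the tested members (vertical axis, limma on scaled TPM) in each comparison, 1 point a member, beside the median of all genes tested. The members centre near 0 in the treatment and parity comparisons, with medians between -0.06 and 0.16, and at -0.61 and -0.73 between 60 days and 1 day with cabergoline and without.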

How the data were processed

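RNA from mammary organoids was depleted of ribosomal RNA, and the authors quantified the reads with Salmon against GRCm38. The deposited values are TPM per gene, one column for each of 25 libraries, already scaled to a common total, so read depth is unknown and no count test was run. Symbols were matched for 34582 of 34866 gene identifiers. The members and all gene lists were chosen with earlier results of these data known.

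Each comparison used only its own groups of 5 libraries. Each library was scaled by its median ratio to the mean library, over genes at 1 TPM or more in every library compared, genes that reached 1 TPM in fewer than 5 libraries were left out, and log2(scaled TPM + 1) was fitted with limma 3.58.1 (R 4.3.3, lmFit and eBayes with trend) and Benjamini-Hochberg adjustment at 0.05. A fold change on this scale understates the change of low genes. Two-sided p-values set the difference between groups against the spread between libraries within them, which limma moderates over genes. The labels number the libraries but do not pair them. Close copies were found with blastn 2.17.0 among annotated transcripts (at least 95% identity over 90% of the coding sequence). Start windows came from RefSeq (GRCm38.p6).

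Named were, per comparison and direction, up to 10 members with the smallest p past the threshold or otherwise the 3 with the largest differences, the 10 highest members by mean TPM, the paralogue pairs, the stalk genes with Rpsa, Rps6, Rpl5, Rpl11 and Rpl26, members under 1 TPM throughout, and the leading pseudogenes. Alternatives were TPM as deposited, rescaling without Gm12895 and mitochondrial transcripts, quantile normalization, factors without ribosomal protein genes, a pseudocount of 0.1, no filter, library weights, a replicate block, and each library left out. Adding named pseudogenes or close copies to each member was chosen after seeing the data. The fitting procedure was tested on simulated data. Some members that the rule named are not reported here.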

Additional observations from a re-analysis of the deposited data

Results flagged for a closer look

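Single libraries far from the other 4 of their group were looked for in 134 sets of 5 values (members and copies described above, and their sums), and 11 were found at the 95% level of Dixon's test. Chance gives about 1 in 20. In untreated 1-day mice, replicate 3 had 92.5 TPM of Rps27, where the others had 2.28 to 26.1, and 19.96 TPM of Rpl3l, where the others had 0.147 to 3.22. In the same group replicate 2 had 142 TPM of Rps12l1 (others 0.00246 to 21.7) and 26.02 TPM of Rps6-ps4 (others 0 to 0.0233). These are the 2 libraries of the group with the highest summed level of the members.

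In cabergoline-treated 60-day mice, replicate 3 had 116 TPM of Rpl3l (others 0 to 19.7), replicate 4 had 608 TPM of Rps6-ps4 (others 179 to 278) and replicate 1 had 1717 TPM of Rps2-ps10 (others 1408 to 1482). In untreated 60-day mice, replicate 5 had 237 TPM of Rps13 (others 32.1 to 59.9), and replicate 2, the library with residual milk protein signal, had 626 TPM of Rps12l1 (others 0 to 0.117). Among nulliparous mice, replicate 5 had 8.62 TPM of Rpl39l (others 0 to 0.770), and replicate 1, which held the largest mitochondrial share, had 564 TPM of Rpsa (others 1013 to 1130).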

How the results depend on the processing

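Over 1400 values of single genes under alternatives, 1262 kept direction and side of the threshold. Another 120 kept direction but lost the call, and 18 changed sign. These values cover 68 gene and comparison pairs, and only the 38 between 60 days and 1 day held a call to lose. Of those 38, 13 lost the call and 5 changed sign with TPM as deposited. After rescaling 17 lost the call, as did 18 with the replicate block. The sign changed to -0.36 for Rps27l (cabergoline against untreated, 1 day) with library weights. At 60 days it changed for Rpl29 (-0.147), Rpl10 (-0.0876) and Rps27 (0.0821) with close copies added, for Rpl10 (-0.0879) with named pseudogenes added, and for Rpl27 with library weights (0.35) and without cabergoline 60-day replicate 4 (0.54, with a range of -1.04 to 0.54 as each library was left out). Against nulliparous mice it changed with cabergoline for Rps27 (0.32) and Rpl27 (0.0316) with close copies added and for Rpl27 without that replicate (0.27, range -1.38 to 0.27). In the treatment-by-time term it changed for Rpl29 (-0.0431) and Rps27 (0.00788) with close copies added and for Rps12l1 (0.37) with library weights. Between 60 days and 1 day it changed with TPM as deposited for Rpl15 (0.21) and Rpl27a (0.42) without treatment, and for Rpl15 (0.0177), Rpl24 (0.31) and Rpl15-ps2 (0.32) with cabergoline.

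In untreated mice at 60 days against 1 day, the 20 called members became 42 with TPM as deposited and 0 after rescaling. They became 52 with library weights (6 higher and 46 lower), 13 with close copies added and 7 to 27 as each library was left out. Of all 16312 genes tested, 197 were called with the scaled values and 12043 with TPM as deposited. After rescaling 29 were called, with library weights 8633 and with close copies added 183. The members' median of -0.73 became 1.14 with TPM as deposited and 0.27 after rescaling. With cabergoline the median of -0.61 became 0.97 and 0.39. The 1-day treatment median of -0.06 became 0.33 with TPM as deposited, the same as over all genes. The cause of these shifts was not tested, apart from the change in the median of all genes given above. Rescaling put the summed level of the members at 35539 TPM with cabergoline and 38721 TPM without at 1 day, and of the pseudogenes at 5883 and 6562 TPM. Without Rps12-ps3 the pseudogene share was 18.9% and 19.8% at 60 days and 12.5% and 12.7% at 1 day, with cabergoline and without, and 20.9% in nulliparous mice. Same-numbered libraries did not regularly deviate together (correlations from -0.78 to 0.65). Of 5 such pairs, 3 lay over 0.1 in cabergoline against untreated mice at 60 days and in cabergoline 60 days against 1 day. In the other comparisons of 2 groups 0 to 2 did. The labels do not pair the libraries, and the numbers were not taken as pairs. With the replicate block 35 members were called with cabergoline at 60 days against 1 day (1 higher and 34 lower), where 2902 of 16457 genes were. Without treatment 1 member was called, lower, where 7 of 16312 genes were. In the other comparisons 0 members were called, as in every other alternative there. TPM carries no depth, so precision rests on 5 libraries a group.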
